A study of Mus musculus with 6 samples.

Results

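The pumps described here are the beta subunits of the sodium-potassium pump (Atp1b1, Atp1b2 and Atp1b3) and the calcium pumps of the plasma membrane (Atp2b1, Atp2b2, Atp2b3 and Atp2b4), 7 genes in all. They were taken from an array table of 35557 probe sets by gene symbol: every probe set that the platform annotation pairs with 1 of these symbols and no other. This gave 7 probe sets for 6 genes, 2 of them for Atp1b3, within a test over 19938 genes. Atp2b4 had no probe set by this rule and was not analysed here. The RNA came from the dissected organ of Corti, the strip of hair cells and supporting cells that senses sound, of mice at postnatal day 15 on a C57BL/6J-129/Sv background. There were 3 arrays from Pjvk-/- mice (called knockout) and 3 from Pjvk+/+ mice (called wild-type). Pjvk encodes pejvakin, and the comparison asks which transcripts differ in the hearing organ when it is missing. The labels name no agent, sound exposure or Cre line, and do not say whether the arrays of a genotype came from separate animals or from pools, so the p-values reflect a spread between arrays that may be technical only.

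The sodium-potassium pump exports sodium and imports potassium at the cost of ATP. Its alpha subunit carries out the transport, its beta subunit is a glycoprotein needed to fold the pump and bring it to the cell surface, and small FXYD proteins adjust its activity. In the cochlea it is abundant in the marginal cells of the stria vascularis, which feed potassium into the endolymph, in fibrocytes of the spiral ligament and in neurons. Plasma membrane calcium pumps use ATP to expel calcium. Hair cells depend on them because calcium enters through the mechanotransduction channels of the hair bundle and at the synapse, and mutations of Atp2b2 cause deafness in mice.

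None of the 6 measured pump genes passed the test between the genotypes. The test was limma, a linear model that shares information on the spread over all genes, with p-values adjusted over 19938 genes by the Benjamini-Hochberg method and a gene called at an adjusted p under 0.05. By that rule 7 genes, 0.0351% of those tested, were called, all of them lower in the knockout. The differences of the pump genes, as log2 fold changes of knockout minus wild-type, lay between -0.05 and 0.04. No pump gene reached an unadjusted p under 0.05 either, where 12.4% of all genes did. The knockout and wild-type arrays overlapped for every measured pump gene, while they did not overlap for 17.8% of all genes. With 3 arrays against 3 an exact two-sided permutation test cannot give a p below 0.1.

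**Figure D1:**
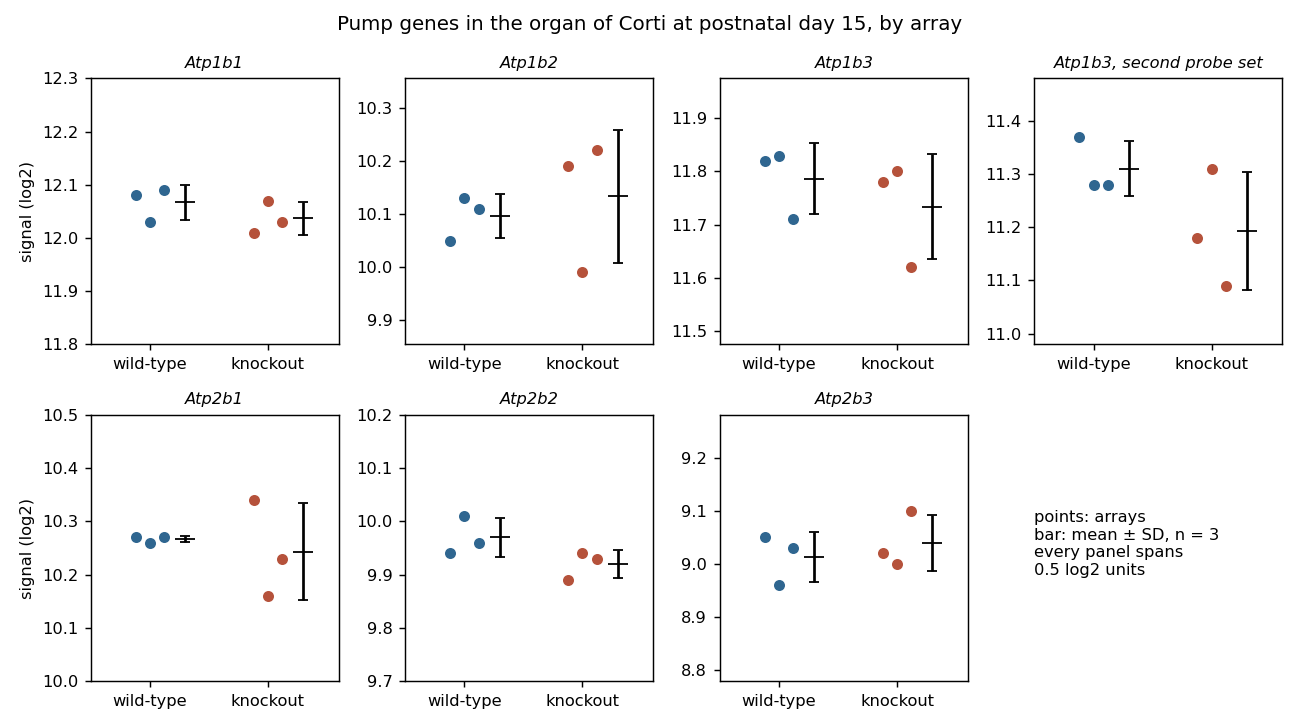
Signal on the log2 scale (vertical axis) of the 7 probe sets of the pump genes in each wild-type (blue) and knockout (red) array, with the mean and SD of 3 arrays beside the points. Every panel spans 0.5 log2 units, and in each panel the points of the genotypes overlap.

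Among the beta subunits, Atp1b1 encodes the most widely expressed one. In log2 units, as all signals below, its probe set 10359689 read 12.01, 12.07 and 12.03 in knockout against 12.08, 12.03 and 12.09 in wild-type tissue. All 6 arrays lay within 0.08, and knockout replicate 2 lay above wild-type replicate 2. The log2 fold change was -0.03 with a standard error (SE) of 0.05 (limma adjusted p = 0.835, exact two-sided permutation p = 0.3). It was -0.048, with separate groups, without wild-type replicate 2, and -0.0069 with quantile normalization.

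Atp1b2 encodes the beta subunit first described as an adhesion molecule on glia. Its probe set 10387505 read 10.19, 9.99 and 10.22 in knockout against 10.05, 10.13 and 10.11 in wild-type tissue. Knockout replicates 1 and 3 were the highest of the 6 arrays and knockout replicate 2 the lowest, so that the wild-type values lay inside the range of the knockout values. The log2 fold change was 0.04 (SE 0.07, limma adjusted p = 0.852, exact permutation p = 0.7). It was 0.11 without knockout replicate 2, with the groups then apart, and -0.0067 without knockout replicate 3. In both cases the gene stayed uncalled.

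Atp1b3 encodes another beta subunit and was the only pump gene with more than 1 probe set. Probe set 10595793, the brighter of them, read 11.78, 11.80 and 11.62 in knockout against 11.82, 11.83 and 11.71 in wild-type tissue. Replicate 3 was the lowest array of each genotype, and the groups overlapped because wild-type replicate 3 lay below knockout replicates 1 and 2. The log2 fold change was -0.05 (SE 0.07, limma adjusted p = 0.766, exact permutation p = 0.5). It was 0.0033 without knockout replicate 3 and -0.092, with separate groups, without wild-type replicate 3. Probe set 10598994 read 11.18, 11.31 and 11.09 in knockout against 11.37, 11.28 and 11.28 in wild-type tissue. Here too knockout replicate 3 was the lowest array, and the groups overlapped through knockout replicate 2 alone. In the fit over all probe sets its log2 fold change was -0.12 (SE 0.07, limma adjusted p = 0.598, exact permutation p = 0.3). The probe sets of Atp1b3 thus gave differences of the same sign and neither passed. Which part of the gene each one covers, and whether either also detects related sequences, is not known here.

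Among the calcium pumps, Atp2b1 encodes the form found in most tissues. Its probe set 10366004 read 10.34, 10.16 and 10.23 in knockout against 10.27, 10.26 and 10.27 in wild-type tissue. The wild-type arrays were nearly identical and lay inside the range of the knockout arrays, with knockout replicate 1 above and knockout replicates 2 and 3 below them. The SD of the knockout arrays was 0.09 and that of the wild-type arrays 0.0058 (n = 3 each). The log2 fold change of -0.02 (SE 0.06, limma adjusted p = 0.896, exact permutation p = 0.7) changed sign with quantile normalization (0.0089), with cyclic loess (0.015) and without knockout replicate 2 (0.018). Without knockout replicate 1 it was -0.072, with separate groups.

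Atp2b2 encodes the calcium pump of the stereocilia of hair cells, and it is also strongly expressed in neurons of the cerebellum. Its probe set 10546977 read 9.89, 9.94 and 9.93 in knockout against 9.94, 10.01 and 9.96 in wild-type tissue. The genotypes met at a shared value, since knockout replicate 2 and wild-type replicate 1 both read 9.94. The log2 fold change was -0.05 with an SE of 0.05 (limma adjusted p = 0.710, exact permutation p = 0.2), the smallest p among the pump genes with 1 probe set a gene. The other probe set of Atp1b3, and the mean of its probe sets, had a smaller unadjusted p (0.156 and 0.236, against 0.372 for Atp2b2). Without knockout replicate 2 (-0.06) or wild-type replicate 1 (-0.065), or with the arrays centred on their medians (-0.063), the knockout values lay entirely below the wild-type values. With quantile normalization (-0.0072) or cyclic loess (-0.0092) the difference nearly vanished, and the gene stayed uncalled throughout.

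Atp2b3 encodes a calcium pump found mainly in the nervous system and lies on chromosome X. Its probe set 10600180 read 9.02, 9.0 and 9.10 in knockout against 9.05, 8.96 and 9.03 in wild-type tissue. Knockout replicate 3 was the highest array and wild-type replicate 2 the lowest, with the other 4 between 9.0 and 9.05. The log2 fold change was 0.03 (SE 0.06, limma adjusted p = 0.868, exact permutation p = 0.6). It was 0.07 with cyclic loess, where the groups did not overlap, and -0.0033 without knockout replicate 3. Y-linked transcripts differed beside it: all 3 measured genes of that list were lower in the knockout, 3 of them at an unadjusted p under 0.05, with a median of -0.34 in log2 units and list means of 7.39 to 7.58 in knockout and 7.65 to 8.05 in wild-type arrays. None of these Y-linked genes passed over all genes, and the part of the sex of the animals in the Atp2b3 values was not tested.

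The intervals show which differences the 6 arrays leave possible. The 95% intervals of limma, not adjusted over genes, ran from -0.15 to 0.09 for Atp1b1, from -0.13 to 0.20 for Atp1b2 and from -0.21 to 0.10 for Atp1b3. For the calcium pumps they ran from -0.16 to 0.12 for Atp2b1, from -0.17 to 0.07 for Atp2b2 and from -0.10 to 0.16 for Atp2b3. The bound farther from 0 thus corresponded to a fold difference between 1.11 for Atp1b1 and 1.16 for Atp1b3. These bounds hold for 1 probe set a gene and rest on a spread between arrays that may be technical only. No interval was computed for the other probe set of Atp1b3, whose difference, -0.12 (SE 0.07), lay farther from 0. The bounds are not the size at which a gene would be called.

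**Figure D2:**
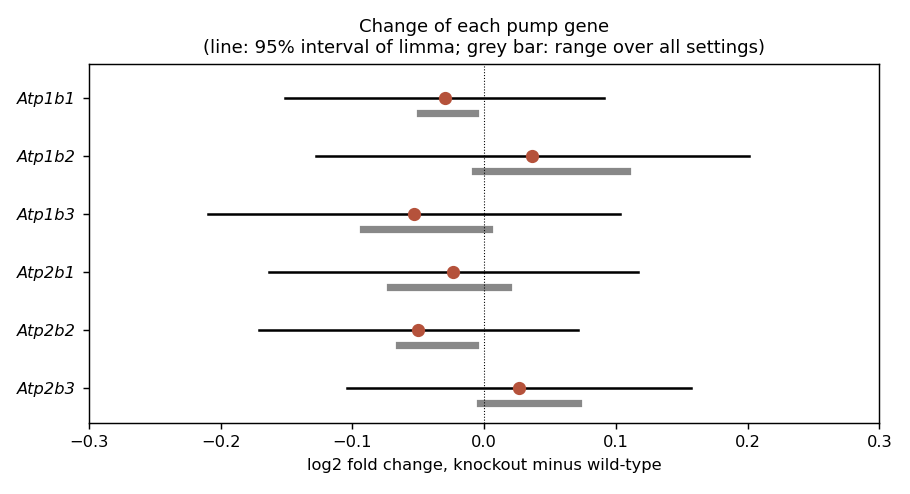
Log2 fold change (horizontal axis, knockout minus wild-type) of the 6 measured pump genes, with limma's 95% interval as a line and, as a grey bar, the range of the value over all settings tried. Every interval includes 0, and the bars of Atp1b2, Atp1b3, Atp2b1 and Atp2b3 also reach across 0.

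The pump genes differed in how closely their arrays repeated. The pooled SD within genotypes was 0.031 for Atp1b1 and 0.032 for Atp2b2. It was 0.050 for Atp2b3 and 0.064 for Atp2b1, and 0.084 for Atp1b3 and 0.093 for Atp1b2. The median over the 3988 genes in the upper 2 of 10 classes of mean signal was 0.056, so that Atp1b1 and Atp2b2 repeated more closely than most bright genes and Atp1b2 and Atp1b3 less closely. No array was low or high for all pump genes. Knockout replicates 1 and 2 each held the lowest value of 2 of the 6 genes, and knockout replicate 3 and wild-type replicate 2 each held the highest value of 2. The mean deviation of the 6 genes from their own means ran from -0.03 in knockout replicate 2 to 0.01 in knockout replicate 1.

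All measured pump genes were among the brighter genes of the table, with the mean signal between percentile 86.9 for Atp2b3 and 99.9 for Atp1b1 of all genes. Signals of different probe sets depend on their probes, so no order of transcript levels between the pump genes is given. Of the 6 genes 4 were lower and 2 higher in the knockout, with a median log2 fold change of -0.03, while 53.8% of all genes were lower, with a median of -0.01. The bright genes as a whole lay slightly lower: in the same upper 2 classes 76.6% were lower, with a median of -0.04. In these classes the groups did not overlap for 23.2% of the genes and 10.7% had an unadjusted p under 0.05, against none of the 6 pump genes on either count. With quantile normalization or cyclic loess the split of the pump genes was 3 lower and 3 higher, with medians of 0.00097 and 0.0030. These counts describe 6 genes and were not tested.

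**Figure D3:**
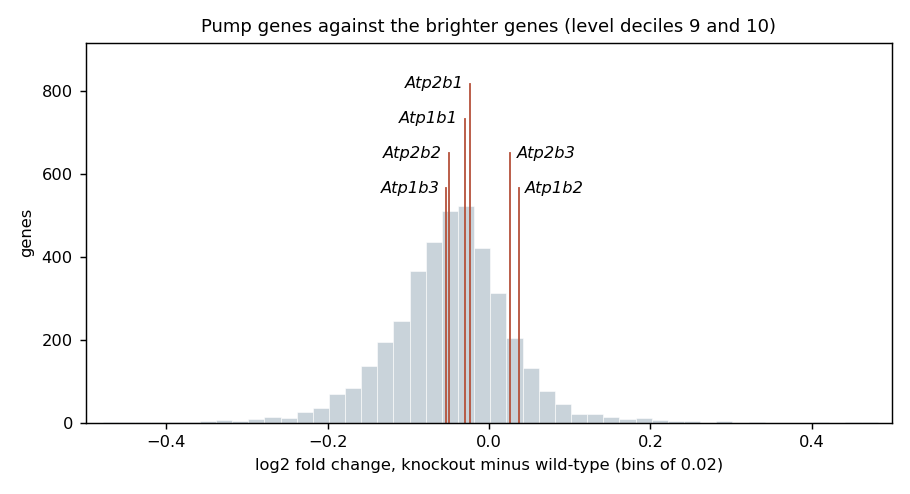
Histogram of the log2 fold change (horizontal axis, knockout minus wild-type, in bins of 0.02) of the 3988 genes in the upper 2 of 10 classes of mean signal, with the number of genes on the vertical axis and the 6 pump genes marked by red lines. The pump genes lie between -0.05 and 0.04, 4 of them near the peak of the distribution and Atp2b3 and Atp1b2 to its right, and 5 of the genes lie outside the plotted range.

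The remaining parts of the sodium-potassium pump were read from a list of further subunits and regulators. Of this list 12 genes were measured. None of the 12 passed in either direction (limma), 6 were lower and 6 higher, and the median log2 fold change was -0.01. At an unadjusted p under 0.05 there were 2 of the 12, in opposite directions, where 12.4% of all genes had such a p. The groups did not overlap for 1 of the 12, against 17.8% of all genes. Atp1b4, which encodes a beta-like protein of skeletal muscle, read 5.50, 5.41 and 5.45 in knockout against 5.30, 5.32 and 5.19 in wild-type tissue. The groups did not overlap, and the log2 fold change was 0.18 (SE 0.06, limma adjusted p = 0.317). Fxyd3, a FXYD regulator of epithelia, had a difference of -0.17 (SE 0.07, limma adjusted p = 0.386). The signal of Atp1b4 was dim, at percentile 19.8 of all genes. Skeletal muscle markers stood beside it: all 12 were measured and all 12 were higher in the knockout (11 of 12 with each other scaling), with a median of 0.17, 6 at an unadjusted p under 0.05 and none called. Dim genes as a whole lay higher: in classes 2 to 5 of 10 classes of mean signal, which hold these markers, 65.4% of genes were higher, with a median of 0.05, and 13.9% had an unadjusted p under 0.05. The list means of the muscle markers were 6.20 to 6.39 in knockout and 6.04 to 6.17 in wild-type arrays. The part of carried-along muscle in the Atp1b4 values was not tested. The other genes that the naming rule gave were Nkain4, a protein that interacts with the pump, at 0.17 (SE 0.10), and Fxyd2, a regulator known from the kidney, at 0.08 (SE 0.07).

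Other calcium transporters and the partners of the calcium pumps formed a list of 23 genes, of which 22 were measured. None passed in either direction (limma), 13 were lower, 8 higher and 1 without a difference, and the median was -0.02. At an unadjusted p under 0.05 there were 2 of the 22, Pln and Atp2a3, both lower, where 12.4% of all genes had such a p. The groups did not overlap for 4 of the 22, all lower in the knockout, against 17.8% of all genes. Both counts lay near or below the share over all genes. Pln, which encodes phospholamban, an inhibitor of the calcium pump of the endoplasmic reticulum in heart and smooth muscle, read 5.98, 6.11 and 5.98 in knockout against 6.24, 6.60 and 6.55 in wild-type tissue. Every knockout array lay below every wild-type array, and the log2 fold change of -0.44 (SE 0.10) had a limma adjusted p of 0.192. The signal of Pln was dim, at percentile 34.5 of all genes. Atp2a3, an endoplasmic reticulum calcium pump, had a difference of -0.14 (SE 0.06, limma adjusted p = 0.378), also with separate groups. Slc8b1, the sodium-calcium exchanger of mitochondria, differed by -0.15 (SE 0.07) and Slc24a4, a potassium-dependent sodium-calcium exchanger, by 0.18 (SE 0.09). Neuroplastin (Nptn) and basigin (Bsg), which associate with plasma membrane calcium pumps as subunits, were looked up for that role outside the naming rule. Nptn read 10.57, 10.63 and 10.55 in knockout against 10.67, 10.70 and 10.66 in wild-type tissue, with separate groups and a difference of -0.09 (SE 0.05, limma adjusted p = 0.491). Bsg differed by -0.06 (SE 0.06, limma adjusted p = 0.682). Both genes were bright, in the upper 2 of 10 classes of mean signal. There 76.6% of genes were lower and 23.2% had separate groups. With cyclic loess the differences were -0.058 for Nptn and -0.017 for Bsg.

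Cytosolic calcium buffers, which bind the calcium that the pumps later remove, were all measured, 7 of 7. None passed (limma), 3 were lower and 4 higher, and the median was 0.02. Without adjustment 4 of the 7 had a p under 0.05, 3 higher and 1 lower, where 12.4% of all genes did. Ocm, which encodes oncomodulin, the buffer of outer hair cells, read 9.98, 10.05 and 9.79 in knockout against 9.72, 9.70 and 9.76 in wild-type tissue. The groups did not overlap, and the difference was 0.21 (SE 0.07, limma adjusted p = 0.333). Calb1, which encodes calbindin, read 8.77, 7.78 and 8.35 against 7.71, 7.51 and 7.92, a difference of 0.59 (SE 0.22, limma adjusted p = 0.353) with overlapping groups. It ranged from 0.35 to 0.85 with 1 array left out. S100a1 differed by -0.16 (SE 0.06) and S100g by 0.15 (SE 0.06), each with separate groups. Markers of hair cells, whose bundles carry the Atp2b2 pump, split into 6 higher and 5 lower of 11 measured, with a median of 0.03, 2 at an unadjusted p under 0.05, none called, and list means of 7.58 to 7.67 in knockout and 7.54 to 7.61 in wild-type arrays. Neuron markers had 7 of 10 lower (5 with quantile normalization or cyclic loess), a median of -0.04, 0 at an unadjusted p under 0.05, none called, and list means of 10.09 to 10.28 and 10.14 to 10.23. All of them but Syt1 and Prph were bright, in the classes of signal where 76.6% of genes were lower, with a median of -0.04. The split of the neuron markers thus lay near that of genes of their level. In bulk tissue a lower number of cells of a type and less RNA per cell cannot be told apart.

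**Figure D4:**
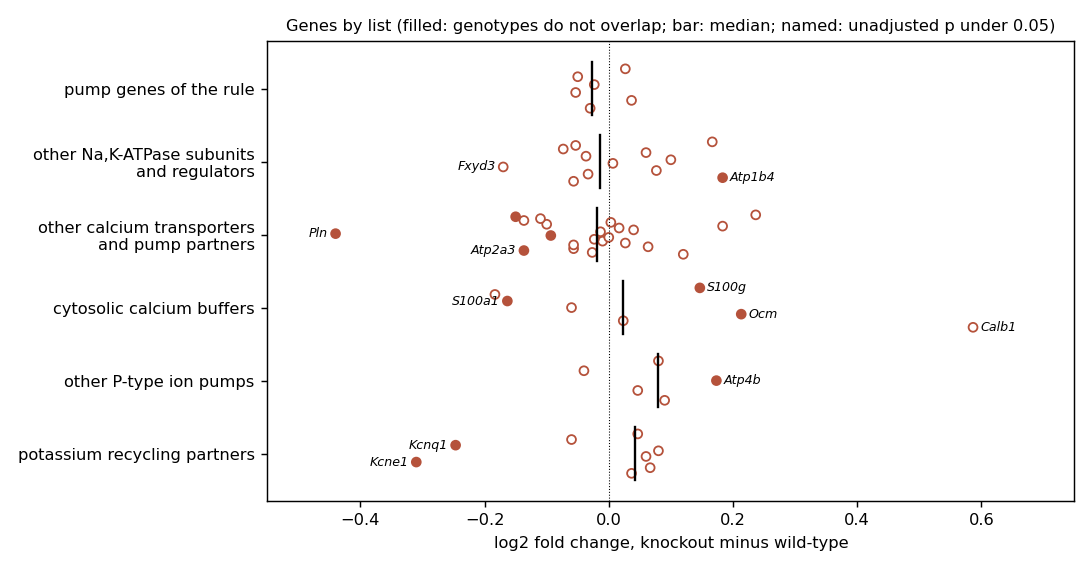
Log2 fold change (horizontal axis, knockout minus wild-type) of the 6 measured pump genes and of the measured genes of 5 related lists, 1 point per gene. Filled points are genes whose genotypes do not overlap, bars are list medians, and genes with an unadjusted limma p under 0.05 are named. No pump gene is filled, and the named genes of the related lists lie on both sides of 0, from Pln at -0.44 to Calb1 at 0.59.

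Genes that work beside the sodium-potassium pump in the recycling of potassium were measured for 8 of 11. None passed (limma), 3 were lower and 5 higher, and the median was 0.04. At an unadjusted p under 0.05 there were 2, Kcne1 and Kcnq1, the subunits of the channel through which marginal cells release potassium. Over all genes 12.4% had such a p and 17.8% had separate groups. Kcne1 read 5.24, 5.23 and 5.40 in knockout against 5.48, 5.51 and 5.81 in wild-type tissue, and Kcnq1 read 6.77, 6.69 and 6.65 against 6.85, 6.85 and 7.15. Each was separate between the genotypes, with log2 fold changes of -0.31 (SE 0.10, limma adjusted p = 0.295) and -0.25 (SE 0.09, limma adjusted p = 0.342). The signal of Kcne1 was dim, at percentile 21.1 of all genes. Slc12a2, the sodium-potassium-chloride transporter that takes up potassium next to the pump, differed by -0.06 (SE 0.05), and Kcnj16, a potassium channel subunit, by 0.08 (SE 0.07). Kcne1 and Kcnq1 are also marginal cell markers. In that list 3 of 4 measured genes were lower (4 of 4 with cyclic loess), with a median of -0.28 and list means of 5.94 to 6.05 in knockout and 6.16 to 6.39 in wild-type arrays. At an unadjusted p under 0.05 there were 3 and none was called. The measured genes of that list lay in classes 2 to 5 of mean signal. In these classes 65.4% of all genes were higher, with a median of 0.05, and 13.9% had an unadjusted p under 0.05. Markers of the intermediate cells of the stria vascularis and of melanocytes split into 3 lower and 3 higher of 6 measured, with a median of -0.02. Of these, 2 had an unadjusted p under 0.05, both lower. Among them Dct was called, at -1.86 (SE 0.17, limma adjusted p = 0.0115). The beta subunit probe sets, given above, had differences between -0.12 and 0.04. Fibrocyte markers of the spiral ligament were lower in 7 of 7 (6 of 7 with quantile normalization or cyclic loess), with a median of -0.08, 0 at an unadjusted p under 0.05, none called, and list means of 10.17 to 10.42 and 10.37 to 10.41. All 7 were bright, in the classes of signal where 76.6% of genes were lower, with a median of -0.04. The part of the makeup of the dissected tissue in the beta subunit values was not tested.

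Other ion pumps of the same enzyme class were measured for 5 of 5, with 1 lower and 4 higher (0 and 5 with quantile normalization or cyclic loess), a median of 0.08, none passing (limma) and 1 at an unadjusted p under 0.05. Atp4b, the beta subunit of the gastric proton-potassium pump, differed by 0.17 (SE 0.06, limma adjusted p = 0.329), with separate groups and a dim signal at percentile 32.2. Atp12a, a non-gastric proton-potassium pump, differed by 0.09 (SE 0.09), and the copper pumps Atp7b and Atp7a by 0.08 (SE 0.09) and -0.04 (SE 0.06). Apart from Atp7a these genes were dim, and in classes 2 to 4 of the 10 classes of mean signal 69.3% of all genes were higher in the knockout, with a median of 0.06, so that the split of this list lay near that of genes of its level. In these classes 14% of genes had an unadjusted p under 0.05.

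Of the genes at or above the median signal, those whose values over the 6 arrays were most like those of Atp2b2 were Zmiz2, Cyb561d2, Zfp330, Tbc1d9b and Alkbh4. Their Pearson correlations with Atp2b2 ran from 0.989 to 0.995. In all, 119 of 9968 compared genes correlated above 0.9. All points share the same arrays, and the values of Atp2b2 span only 0.12, so that this is a description of 6 arrays.

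The targeted gene Pjvk was lower in every knockout array than in every wild-type array, by -0.59 (SE 0.09, limma adjusted p = 0.105), at a dim signal. None of the 7 pump genes lies on its chromosome. Correlations between arrays over all probe sets ran from 0.991 to 0.994, and the labels give no batch.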

How the data were processed

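The authors deposited 1 table of log2 signals for 6 arrays (Affymetrix mouse gene ST, 100 ng of total RNA per the labels' protocols). Per the submitters' processing notes the Affymetrix Expression Console was used; how the signals were summarized and normalized is not given in the sources used here. Array medians ran from 6.66 to 6.69, and no further normalization was applied.

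The platform annotation gave 21789 probe sets 1 symbol and 1621 several, and 12147 were not listed. Of the first, 21698 matched GRCm38.p6 gene identifiers, which updated symbols. The brightest probe set stood for a gene. limma 3.58.1 (R 4.3.3; lmFit, eBayes) compared the genotypes over 19938 genes, with 4 residual and 4.59 prior degrees of freedom, and was tested on simulated data. Precision is limited by the number of arrays.

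The members and lists were chosen with earlier results of these data known. Named were all members, up to 4 genes per related list by unadjusted p, and the 5 genes most correlated with Atp2b2, which was also the member with the smallest p at 1 probe set a gene; exceptions are stated. Alternatives were filters on dim genes, other normalizations, other probe set rules, an intensity trend with robust priors, the replicate number as a block, and leaving out each array.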

Additional observations from a re-analysis of the deposited data

How the results depend on the processing

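No pump gene was called under any setting run. Atp1b1 and Atp2b2 kept a negative sign in all 16 settings, but shrank to -0.0069 and -0.0072 with quantile normalization and to -0.011 and -0.0092 with cyclic loess. Atp2b1 changed sign with quantile normalization (0.0089) and cyclic loess (0.015). With 1 array left out Atp1b2 ran from -0.0067 to 0.11, Atp1b3 from -0.092 to 0.0033, Atp2b1 from -0.072 to 0.018 and Atp2b3 from -0.0033 to 0.047; the cause was not tested. The pump genes with separate groups were 0 in the main analysis, 1 with centring (Atp2b2), 1 with cyclic loess (Atp2b3) and 0 to 2 with 1 array left out, where fewer samples separate more easily. Those lower in the knockout were 4, and 3 to 5 with 1 array left out.

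Over all genes, 7 were called, against 20 among genes above the 25th percentile of signal and 45 among those above the median, where fewer genes were tested, 18 with centring, 1 when all probe sets were tested, 112 with an intensity trend and robust priors, and 2 to 6 with 1 array left out. The replicate block gave 1 call and no pump gene; after the genotype means were subtracted, same-numbered arrays correlated at 0.041, 0.0059 and -0.046, and 1 of 3 knockout arrays correlated best with its own number, so the number was not taken as a pairing. The filters, the block, the trend and testing all probe sets leave a fold change as it is. No value could be computed for Atp2b4. Arrays give no read depth, and background signals were not analysed here.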
